A study of Homo sapiens with 9 samples.

Results

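The genes described here are the bone morphogenetic protein (BMP) ligands *BMP2*, *BMP3*, *BMP4* and *BMP7*, the pathway inhibitors *BAMBI* and *SMAD6*, and the response genes *ID1*, *ID2*, *ID3* and *ID4*. They are 10 of the 60660 genes counted in OVCAR3, a cell line from a high-grade serous ovarian carcinoma. Each was listed by name and found by its Ensembl identifier. They were chosen by their measured counts and fold changes in these same libraries, so their own values are given as a description, without a test. RNA-seq covered 3 groups of 3 libraries. Control cells carried a LacZ plasmid by the study's methods, although their treatment label reads none. CTCFL-OE cells received 2 µg of a plasmid with the *CTCFL* open reading frame and were collected after 48 h. *CTCFL* (BORIS) is the germline paralog of the DNA-binding protein CTCF. CTCFL-KD cells had *CTCFL* lowered with siRNA, and their RNA was kept from an earlier, separately published knockdown experiment. All groups are 1 cell line, and each biological replicate pooled 3 technical replicates.

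BMPs are secreted proteins of the TGF-beta family. They bind pairs of type I and type II serine/threonine kinase receptors, which phosphorylate SMAD1, SMAD5 and SMAD9, and these enter the nucleus with SMAD4. The *ID* genes are the best known direct targets of these complexes in many cell types. ID proteins have a helix-loop-helix but no DNA-binding basic region, and they hold E proteins away from DNA. SMAD6 and BAMBI damp the pathway inside the cell and at the receptor, and in ovarian surface epithelium and its tumors the pathway has been studied for growth and migration.

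Against Control, CTCFL-KD differed more than CTCFL-OE did. *BMP7* and *BMP3* messages were higher, *BMP4*, *SMAD6* and all 4 *ID* genes were lower, and *BAMBI* was higher at a low level. In CTCFL-OE *BMP4* and *BMP7* lay above Control, *ID1* and *ID3* lay below it, and no gene differed by 1 or more on the log2 scale. By the limits given below, 23.2% of the 17794 genes tested were called in CTCFL-KD and 2.07% in CTCFL-OE. *BMP2* had 0 counts in all 9 libraries, and a count of 0 allows up to 3 counts, or 0.117 to 0.271 CPM (counts scaled to a common library total) on the TMM-scaled library sizes explained below. In these bulk samples, fewer cells of a type and less RNA per cell cannot be told apart.

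The promoter sequences are shown because the 4 *ID* genes moved together and because *BAMBI* moved the other way. The RefSeq table (GRCh38.p14) held a window from 250 bases before to 50 bases after the start site for 7 of the 10 genes, all but *BMP2*, *BMP3* and *BMP7*. The 250 bases before the start are printed 5′ to 3′ on the strand of the gene. *ID1* lies at chr20:31605039-31605288 on the plus strand, *ID2* at chr2:8681806-8682055 on the plus strand, *ID3* at chr1:23559502-23559751 on the minus strand, *ID4* at chr6:19837120-19837369 on the plus strand and *BAMBI* at chr10:28677271-28677520 on the plus strand. Capitals mark the matches, on either strand, to GGCGCC and CAGAC (reverse GTCTG), the GC-rich and the classical SMAD elements, to TATAA (reverse TTATA), the core of the TATA box, and to CCAAT (reverse ATTGG), the CCAAT box. The last 2 motifs were added after these sequences had been read.
ID1: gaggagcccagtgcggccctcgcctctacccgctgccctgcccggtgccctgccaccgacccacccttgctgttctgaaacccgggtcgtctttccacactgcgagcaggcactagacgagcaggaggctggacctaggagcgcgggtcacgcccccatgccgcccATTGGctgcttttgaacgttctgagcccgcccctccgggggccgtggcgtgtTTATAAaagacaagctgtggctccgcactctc
ID2: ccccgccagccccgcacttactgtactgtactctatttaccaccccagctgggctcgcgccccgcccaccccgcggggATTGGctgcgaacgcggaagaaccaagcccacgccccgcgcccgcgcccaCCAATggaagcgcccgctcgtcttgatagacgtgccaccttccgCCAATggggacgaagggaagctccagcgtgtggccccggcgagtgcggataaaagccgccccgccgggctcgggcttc
ID3: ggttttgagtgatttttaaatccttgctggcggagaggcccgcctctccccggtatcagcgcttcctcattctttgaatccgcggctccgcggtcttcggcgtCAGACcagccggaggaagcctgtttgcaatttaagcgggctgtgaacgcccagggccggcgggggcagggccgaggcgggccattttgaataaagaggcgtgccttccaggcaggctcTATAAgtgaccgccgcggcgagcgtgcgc
ID4: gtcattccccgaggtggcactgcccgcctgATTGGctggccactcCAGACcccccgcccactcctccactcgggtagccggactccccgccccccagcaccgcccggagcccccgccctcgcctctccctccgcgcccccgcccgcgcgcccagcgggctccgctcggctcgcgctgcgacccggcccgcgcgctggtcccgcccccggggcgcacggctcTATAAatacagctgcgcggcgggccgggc
BAMBI: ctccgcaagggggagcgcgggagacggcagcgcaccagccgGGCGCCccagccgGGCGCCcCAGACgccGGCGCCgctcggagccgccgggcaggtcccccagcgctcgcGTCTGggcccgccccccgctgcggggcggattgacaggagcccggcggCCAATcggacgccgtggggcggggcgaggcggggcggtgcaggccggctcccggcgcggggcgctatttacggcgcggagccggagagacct

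In the windows of 300 bases, GGCGCC occurred in *BAMBI* 3 times and in the first of 3 *BMP4* entries 2 times, against 19.0% of 27305 promoters with at least 1 match. CAGAC occurred 2 times in *BAMBI* and 1 time in *ID3*, in *ID4* and in each of the 3 *BMP4* entries, against 45.0% of promoters. *ID1*, *ID2* and *SMAD6* had neither motif in this window. TATAA began at position -31 in *ID1*, at position -29 in *ID3* and *ID4* and, on the opposite strand, at position -28 in the third *BMP4* entry, counted from the start site, and 21.1% of promoters held it somewhere in the window. In *ID1* the letters TTATAA read as a match on both strands. *ID2* had no TATAA but 3 CCAAT matches, *ID1*, *ID4*, *BAMBI* and *SMAD6* had 1 each, and 35.7% of promoters had at least 1. No match of one motif overlapped a match of another.

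Total counts per library ranged from 14332622 to 24490080. Mitochondrial genes took 6.16% to 6.52% of counts in Control, 7.40% to 14.9% in CTCFL-OE and 7.80% to 11.8% in CTCFL-KD. The TMM scaling factor of CTCFL-KD replicate 1 was 0.775, and the ratio of its counts to the other CTCFL-KD libraries fell with transcript length (Spearman's rho -0.56 across 8236 genes). The same ratio also fell with length in replicate 1 of Control (-0.39) and, less, of CTCFL-OE (-0.15). *CTCFL* had 6, 9 and 10 counts in Control and 36, 34 and 72 in CTCFL-OE, while CTCFL-KD had 0, 1 and 0. It was 2.73 ± 0.48 (SE) higher on the log2 scale in CTCFL-OE (adjusted p = 0.0287) and at least 1.89-fold lower in CTCFL-KD (adjusted p = 0.0162), with edgeR's quasi-likelihood test and Benjamini-Hochberg adjustment. The CTCFL-KD call was lost without CTCFL-KD replicate 3 (adjusted p = 0.0551), and the CTCFL-OE call without any one Control library (adjusted p from 0.125 to 0.176), while without CTCFL-OE replicate 3 its log2 fold change was 2.13. The line's epithelial markers (*PAX8*, *WT1*, *MUC16*, *EPCAM*, *CDH1*, *KRT7*, *KRT8*, *KRT18*, *ESR1*) summed to 5155 to 5279 CPM in Control, 4353 to 4857 in CTCFL-OE and 8775 to 14113 in CTCFL-KD, with none of the 9 at the floor, although *ESR1* was too low to be tested. In CTCFL-KD *EPCAM* (log2 1.19 ± 0.28 SE), *KRT8* (1.32 ± 0.28), *KRT18* (1.76 ± 0.36) and *MUC16* (2.84 ± 0.34) met the limits given below as higher and *KRT7* (-1.12 ± 0.31) as lower. *WT1* had 71.3 to 74.7 CPM in Control, 39.7 to 56.9 in CTCFL-OE and 37.7 to 54.0 in CTCFL-KD, and passed in neither. The highest CTCFL-KD sum was that of replicate 1. There *KRT8* had 5710 CPM and *KRT18* 3963, against 3346 and 1669 in replicate 2 and 3218 and 1509 in replicate 3. The call of *EPCAM* held in 17 of 20 alternatives, being lost without CTCFL-KD replicate 1 (log2 0.94) and with transcript length offsets, and that of *KRT7* in 18 of 20, being lost without CTCFL-KD replicate 2 (adjusted p = 0.0519, edgeR) or 3. The 10 fibroblast markers summed to 28.0 to 33.8 CPM in Control, 25.0 to 44.2 in CTCFL-OE and 37.8 to 43.0 in CTCFL-KD, with *COL1A2*, *COL3A1* and *DCN* at or under 3 counts in Control and *PDGFRA* and *THY1* at or under 3 counts in CTCFL-KD. Single fibroblast markers moved more than this sum: *COL1A2* had 0 counts in every Control library and 156, 239 and 247 in CTCFL-KD (at least 99.8-fold higher), *COL3A1* had 0 in Control and 8, 9 and 8 in CTCFL-KD, and *POSTN* rose by 2.74 ± 0.55 (SE) on the log2 scale, on 2, 1 and 5 Control counts (3.57 without Control replicate 3). *COL1A1*, most of the Control sum, had 26.4 to 32.0 CPM in Control and 21.3 to 26.1 in CTCFL-KD. Its log2 fold change of -0.36 ± 0.22 did not pass. *FAP*, with 0.707 CPM on average in Control and 0.662 in CTCFL-KD, did not pass either. *LUM*, *PDGFRA*, *PDGFRB*, *THY1*, *DCN* and *COL3A1* were too low to be tested. The part of these markers in the results below was not tested.

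Per library, values are CPM on library sizes scaled by TMM, which sets the libraries to a common level over most genes. *BMP7*, a ligand that signals through BMPR1A, BMPR1B and ACVR1, had 202, 189 and 204 CPM in Control against 284, 258 and 330 in CTCFL-OE, with 1355, 1053 and 1055 in CTCFL-KD. The 3 groups did not overlap, and even the lowest CTCFL-KD library held more than 3 times the highest CTCFL-OE library. Mean levels were 198 ± 8.15 CPM (SD, n = 3), 290 ± 36.6 and 1154 ± 174, and the log2 fold change was 0.55 ± 0.19 (SE) in CTCFL-OE and 2.54 ± 0.20 in CTCFL-KD, or 5.83-fold. Without CTCFL-KD replicate 1, the highest of its group, the CTCFL-KD value was 2.42. *BMP7* lies on chromosome 20 at 57168753-57266641, on the same arm as *CTCFL* and 229 kb from it. Ranked by level per transcript length, *BMP7* was between the 1114th and the 1173rd gene in Control, between the 639th and the 735th in CTCFL-OE and between the 162nd and the 277th in CTCFL-KD.

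*BMP3*, a ligand known for opposing other BMPs, had 0, 3 and 0 counts in Control and 3, 2 and 0 in CTCFL-OE, while CTCFL-KD had 147, 557 and 510. It was thus at or under the floor of 3 counts in all 6 libraries outside CTCFL-KD and well above it in all 3 CTCFL-KD libraries. CTCFL-KD held 13.3, 33.1 and 27.9 CPM (mean 24.8 ± 10.3 SD), at least 177-fold more than the level of 3 counts per library in Control. Replicate 1 had the lowest value, and no fold is given for CTCFL-OE, since both groups were at the floor. The gene spans 81030708-81057627 on chromosome 4.

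*BMP4*, a ligand close to BMP2 in sequence, went the other way. It had 7.41, 6.76 and 7.45 CPM in Control against 9.58, 13.3 and 13.0 in CTCFL-OE, with 1.89, 2.26 and 2.57 in CTCFL-KD. CTCFL-OE lay wholly above Control and CTCFL-KD wholly below it, so *BMP4* was ordered by group as *CTCFL* itself was. How many of all genes had this order was not counted, and nothing is read from it. Means were 7.21 ± 0.386 CPM (SD, n = 3), 11.9 ± 2.05 and 2.24 ± 0.340, with log2 fold changes of 0.73 ± 0.19 (SE) and -1.67 ± 0.21. The CTCFL-KD values rest on 21, 38 and 47 counts. An lncRNA on the opposite strand overlaps 4091 bases of *BMP4*, and it had at most 8 counts in any library.

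Per transcript length, *BMP7* supplied nearly all of the BMP message of these 4 ligands. Its share of their summed TPM (levels divided by transcript length and scaled to a common total) was 93.9% to 94.0% in Control, 91.7% to 94.4% in CTCFL-OE and 96.9% to 98.9% in CTCFL-KD. The sum itself was 114 to 122 TPM in Control, 138 to 168 in CTCFL-OE and 390 to 568 in CTCFL-KD. *BMP4* made up 5.90% to 6.05% of it in Control, 5.58% to 8.28% in CTCFL-OE and 0.242% to 0.416% in CTCFL-KD, where *BMP3* made up 0.863% to 2.72%. The second ligand by share was therefore *BMP4* in Control and CTCFL-OE and *BMP3* in every CTCFL-KD library.

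**Figure D1:**
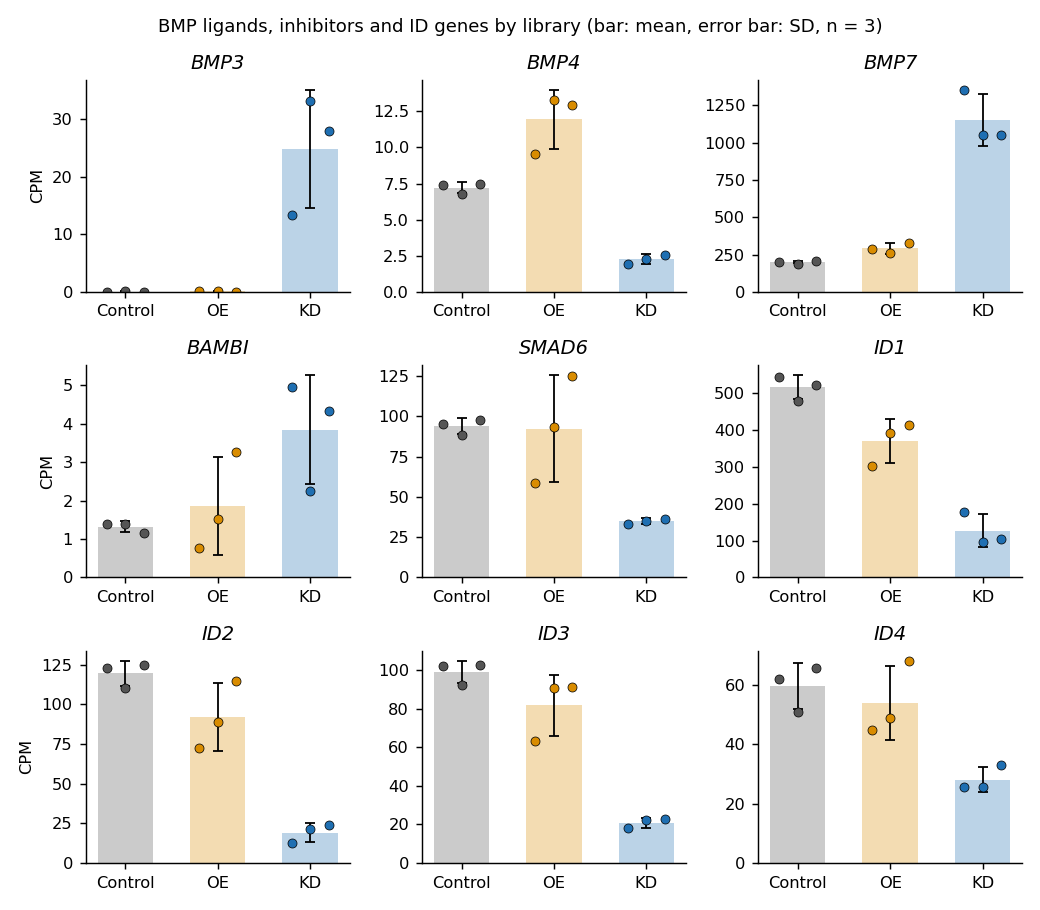
Level of each gene with counts, in CPM on TMM-scaled library sizes, by group; points are the 3 libraries in replicate order, bars the mean and error bars the SD (n = 3). *BMP7* and *BMP3* are highest and *BMP4*, *SMAD6* and the 4 *ID* genes lowest in CTCFL-KD, with mean *BMP7* at 198, 290 and 1154 CPM.

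*SMAD6*, an inhibitory SMAD that is itself switched on by BMP signaling, had 95.5, 88.4 and 97.8 CPM in Control and 58.6, 93.5 and 125 in CTCFL-OE, while CTCFL-KD had 33.0, 35.3 and 36.4. The CTCFL-OE libraries spread to both sides of Control, while the CTCFL-KD libraries lay close together below both groups. Against Control, CTCFL-OE had a log2 fold change of -0.02 ± 0.24 (SE) and CTCFL-KD one of -1.43 ± 0.24, a level 2.69-fold lower. *BAMBI*, a receptor-like protein without a kinase domain that blocks type I receptors, had 28, 36 and 23 counts in Control against 17, 29 and 53 in CTCFL-OE, with 55, 38 and 79 in CTCFL-KD. In CPM these were 1.40, 1.40 and 1.17, then 0.775, 1.52 and 3.26, then 4.96, 2.26 and 4.33. CTCFL-KD lay above Control but overlapped CTCFL-OE, and the log2 fold change against Control was 1.52 ± 0.46. *BAMBI* thus differed from *SMAD6* in direction, at a level of a few CPM.

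*ID1* was by far the most abundant of the *ID* messages. It had 545, 481 and 523 CPM in Control and 303, 394 and 414 in CTCFL-OE, while CTCFL-KD had 178, 96.8 and 105. The groups did not overlap, and both CTCFL-OE and CTCFL-KD lay below Control. The means were 516 ± 32.8 CPM (SD, n = 3), 370 ± 59.3 and 127 ± 44.9, and the log2 fold changes were -0.48 ± 0.25 (SE) and -2.03 ± 0.26. CTCFL-KD replicate 1 held 34.5% of the Control mean and replicates 2 and 3 held 18.7% and 20.4%, and without replicate 1 the log2 fold change was -2.35. Among all genes ranked by TPM, *ID1* was between the 74th and the 82nd in Control, between the 85th and the 141st in CTCFL-OE and between the 435th and the 470th in CTCFL-KD.

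*ID2* had 123, 110 and 125 CPM in Control against 72.2, 88.8 and 115 in CTCFL-OE, with 12.4, 21.1 and 23.6 in CTCFL-KD. CTCFL-OE overlapped Control through its replicate 3, and all CTCFL-KD libraries were far below. The CTCFL-KD libraries held 10.3%, 17.7% and 19.8% of the Control mean, and the log2 fold change of -2.64 ± 0.26 (SE) was the lowest of the 4 *ID* genes, against -0.38 ± 0.25 in CTCFL-OE. *ID2-AS1*, an lncRNA on the opposite strand that shares 3020 bases with the *ID2* locus, had 139, 197 and 130 counts in Control and 55, 99 and 110 in CTCFL-KD. Since the strand setting of the counting is not given in the sources used here, reads of this pair may not be fully separated. *ID2B*, a processed pseudogene of *ID2*, had at most 1 count in any library.

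*ID3* had 102, 92.6 and 103 CPM in Control and 63.4, 90.9 and 91.2 in CTCFL-OE, while CTCFL-KD had 18.0, 22.2 and 22.7. CTCFL-OE lay below Control by a small margin in replicates 2 and 3, and CTCFL-KD lay far below both groups. The log2 fold change was -0.28 ± 0.19 (SE) in CTCFL-OE and -2.24 ± 0.20 in CTCFL-KD. *ID4*, which unlike the other ID proteins has been described as an antagonist of its relatives, had 62.2, 50.9 and 65.9 CPM in Control against 45.0, 49.0 and 68.2 in CTCFL-OE, with 25.8, 25.7 and 33.0 in CTCFL-KD. CTCFL-OE overlapped Control, and CTCFL-KD was below both. The log2 fold changes were -0.14 ± 0.20 and -1.08 ± 0.21, the second being the smallest CTCFL-KD difference of the family and close to the limit of 1 used for calls. *LNC-LBCS*, an lncRNA on the opposite strand that shares 1711 bases with *ID4*, had at most 32 counts in any library.

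Summed over the 4 *ID* genes, the level was 1591 to 1722 TPM in Control, 1005 to 1153 in CTCFL-OE and 261 to 340 in CTCFL-KD. In Control the order per transcript length was *ID1* (1267 ± 54.6 TPM, SD, n = 3), *ID3* (201 ± 8.76), *ID2* (163 ± 8.71), *BMP7* (111 ± 3.49), *ID4* (46.6 ± 5.60), *SMAD6* (33.2 ± 1.43), *BMP4* (7.04 ± 0.284) and *BAMBI* (1.87 ± 0.191), and each gap was wider than the SDs beside it. In CTCFL-KD the order was *BMP7* (488 ± 89.6), *ID1* (226 ± 14.9), *ID3* (34.0 ± 13.4), *ID2* (21.6 ± 11.4), *ID4* (17.5 ± 6.95), *BMP3* (10.4 ± 6.14), *SMAD6* (9.75 ± 3.31), *BAMBI* (4.06 ± 1.50) and *BMP4* (1.76 ± 0.732). There neighbors in the run from *ID3* through *ID2*, *ID4* and *BMP3* to *SMAD6* did not differ beyond their SDs. In CTCFL-OE the order was *ID1* (780 ± 60.7), *ID3* (142 ± 17.6), *BMP7* (140 ± 16.5), *ID2* (107 ± 8.37), *ID4* (36.0 ± 2.89), *SMAD6* (27.5 ± 6.09), *BMP4* (10.04 ± 1.20) and *BAMBI* (2.13 ± 1.17), with *ID3* and *BMP7*, and *ID4* and *SMAD6*, within their SDs. *BMP7*, below 3 of the *ID* genes in Control, thus stood above all 4 in CTCFL-KD. The share of *ID1* in the *ID* sum was 74.9% to 75.9% in Control and 72.0% to 73.9% in CTCFL-OE. In CTCFL-KD it was 71.7% and 71.3% in replicates 2 and 3 but 85.7% in replicate 1. The part of transcript length in these shares was not tested. *ID1* has the shortest transcript model of the family, with 1233 bases against 1496 for *ID3*, 2213 for *ID2* and 3873 for *ID4*. With an offset for transcript length in the fit, the CTCFL-KD log2 fold changes of *ID1* to *ID4* were -2.25, -2.76, -2.38 and -1.12.

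**Figure D2:**
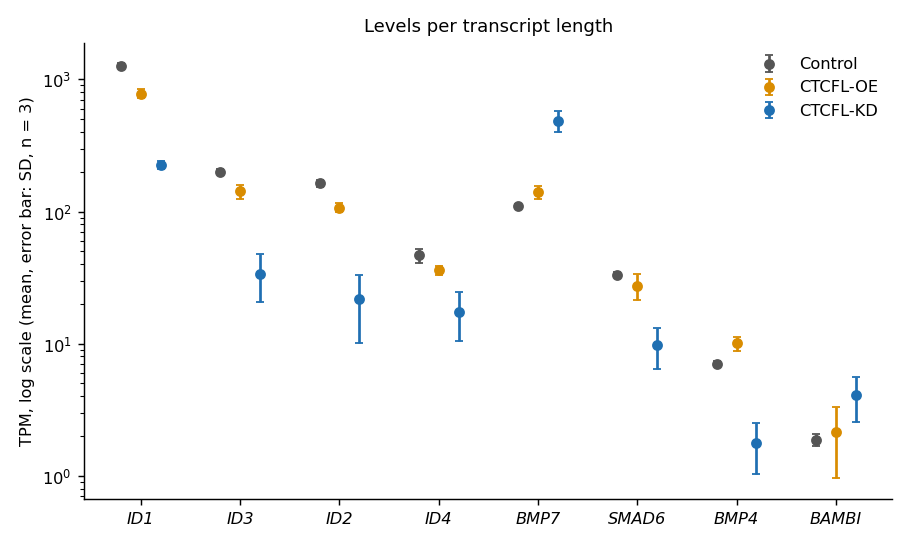
Mean TPM per group on a log axis (error bars: SD, n = 3), with genes ordered from *ID1* to *ID4* and then *BMP7*, *SMAD6*, *BMP4* and *BAMBI*. *ID1*, *ID2* and *ID3* cross with *BMP7* between Control, where *ID1* is at 1267 and *BMP7* at 111 TPM, and CTCFL-KD, where *ID1* and *BMP7* are at 226 and 488 TPM, while *ID4* is below *BMP7* in both.

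DEGs had to differ by more than 1 on the log2 scale, with an adjusted p (edgeR's quasi-likelihood test) below 0.1 for CTCFL-OE and below 0.05 for CTCFL-KD, the limits of the study's methods. In CTCFL-KD against Control, 23.2% of the 17794 genes tested were DEGs, 15.3% higher and 7.94% lower. All 9 of the tested genes described here met the limits, 3 higher and 6 lower, and since they were picked with these values known, nothing can be read from that count. All 9 also had CTCFL-KD libraries that did not overlap Control, as did 28.7% (higher) and 27.6% (lower) of all genes tested. *BAMBI* missed the limits when any one Control library or CTCFL-KD replicate 3 was left out, which leaves 8. In CTCFL-OE against Control, 2.07% of genes were DEGs (1.37% higher and 0.702% lower), and none of the 9 genes was. *BMP4* and *BMP7* lay above Control without overlap, as 16.3% of all genes did, and *ID1* and *ID3* below it, as 20.8% of all genes did. The comparisons share the 3 Control libraries, so their values are set side by side without a measure of likeness. By the study's methods the CTCFL-KD RNA came from an earlier experiment and Control carried a LacZ plasmid. No library is labeled as a control siRNA. The lowering of *CTCFL*, the use of siRNA in place of a plasmid and that experiment cannot be told apart here.

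**Figure D3:**
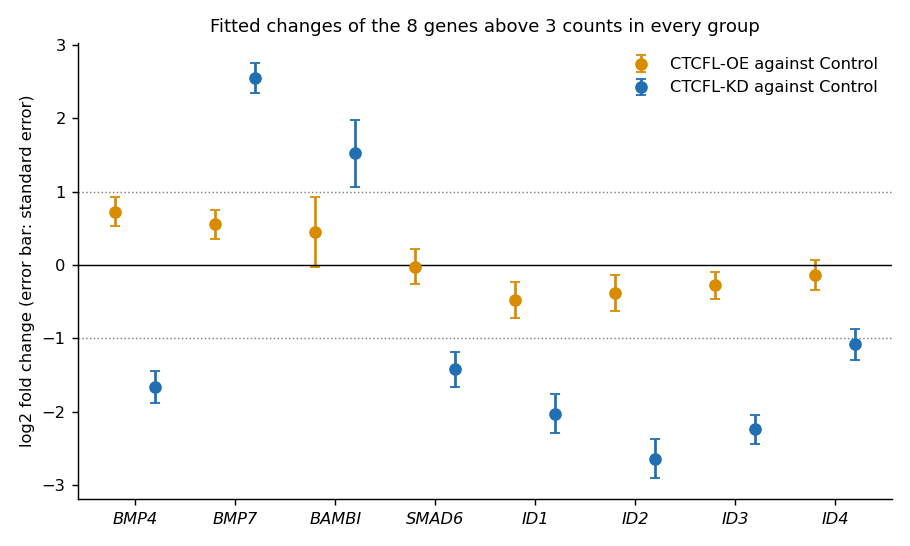
Log2 fold change against Control (error bars: SE) of the 8 genes that were above 3 counts in every group; dotted lines mark 1 and -1. CTCFL-OE values stay between the lines, from -0.48 for *ID1* to 0.73 for *BMP4*, and CTCFL-KD values lie beyond them, from -2.64 for *ID2* to 2.54 for *BMP7*.

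Set against each other, CTCFL-KD and CTCFL-OE differed in the same directions as CTCFL-KD and Control. *BMP7* was 1.99 ± 0.20 (SE) higher on the log2 scale in CTCFL-KD, *BMP3* at least 155-fold higher, and *BMP4* -2.39 ± 0.22. *SMAD6* differed by -1.40 ± 0.24, *ID1* by -1.55 ± 0.26, *ID2* by -2.26 ± 0.26 and *ID3* by -1.96 ± 0.20. *BAMBI* (1.07 ± 0.45) and *ID4* (-0.94 ± 0.21) missed the limits, so 7 of the 9 met them (2 higher and 5 lower), beside 17.0% of all genes tested (10.6% higher and 6.42% lower). Nothing can be read from that count either, since the CTCFL-KD values were known when the genes were picked. The groups of *BAMBI* overlapped, and those of the 8 other genes did not, as was so for 20.3% (higher) and 19.5% (lower) of all genes.

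The remaining pathway genes came from 6 lists of 59 genes in all, of which 44 were tested, 10 of the other 15 had a few counts and 5 had none. In CTCFL-KD against Control, 20 of the 44 were DEGs, 11 higher and 9 lower, beside the 23.2% over all genes (15.3% higher and 7.94% lower). The counts of the single lists below stand beside the same shares, and nothing particular to a list is read from them. Their median log2 fold change was 0.13, beside 0.08 over all genes tested. In CTCFL-OE 2 of 44 were DEGs, beside 2.07% of all genes, and the median was 0.27, beside -0.01. In all sentences on these lists the adjusted p comes from the quasi-likelihood test of edgeR, with Benjamini-Hochberg adjustment over all genes tested.

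Among the other ligands, 6 of 11 were tested and 1 changed in CTCFL-KD. *BMP6*, a ligand best known for control of iron uptake in the liver, fell from 1.45 ± 0.0717 CPM (SD, n = 3) to 0.362 ± 0.125 (adjusted p = 0.00176). *AMH*, the anti-Müllerian hormone and the highest of this list by mean TPM over the 9 libraries, had 7.19 ± 1.02 CPM in Control and 10.9 ± 5.31 in CTCFL-KD and did not pass (adjusted p = 0.182). In CTCFL-OE none of the 6 passed.

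Receptors and co-receptors showed 5 higher and 1 lower of 10 tested in CTCFL-KD. The type I receptor *BMPR1B* had 13.1, 13.1 and 14.8 CPM in Control and 38.2, 41.3 and 49.7 in CTCFL-KD, a log2 rise of 1.65 ± 0.20 (SE, adjusted p = 0.000151). The type II receptor *ACVR2A* rose by 1.11 ± 0.18 (adjusted p = 0.000942). The co-receptors of the repulsive guidance molecule family rose as well, *RGMB* from 8.59 ± 1.11 CPM (SD, n = 3) to 59.8 ± 4.43 (log2 2.80 ± 0.19 SE, adjusted p = 4.36e-06) and *RGMA* from 0.130 to 1.34 CPM (adjusted p = 0.0006). *TGFBR3* (betaglycan), which presents ligands to the signaling receptors, had 7.01, 6.68 and 6.94 CPM in Control and 18.6, 15.0 and 18.9 in CTCFL-OE, while CTCFL-KD had 23.5, 37.3 and 42.6. It was the receptor gene that passed in both comparisons, by 1.35 ± 0.23 in CTCFL-OE (adjusted p = 0.0232) and 2.33 ± 0.23 in CTCFL-KD (adjusted p = 4.1e-05), and the CTCFL-OE call was lost without any one Control library (adjusted p from 0.145 to 0.158). *ENG* (endoglin), a co-receptor of endothelial cells, fell from 10.8 ± 0.349 to 4.31 ± 0.733 CPM (adjusted p = 0.00553). *BMPR1A*, highest among these receptors by the same mean TPM, had 60.0 ± 0.749 CPM in Control and 84.9 ± 27.2 in CTCFL-KD (adjusted p = 0.192), and *ACVR1* (log2 -0.01 ± 0.23) and *BMPR2* (-0.10 ± 0.29) did not pass either.

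Of the SMADs and their ubiquitin ligases, 2 of 7 fell in CTCFL-KD and none rose. *SMAD7*, the second inhibitory SMAD, had 99.9, 89.6 and 101 CPM in Control against 62.0, 74.6 and 111 in CTCFL-OE, with 8.48, 15.6 and 20.8 in CTCFL-KD. It was far below Control in all CTCFL-KD libraries (log2 -2.68 ± 0.32 SE, adjusted p = 0.000143), on the same side as *SMAD6*. *SMAD9*, one of the SMADs that the BMP receptors phosphorylate, fell from 7.03 ± 0.603 to 1.32 ± 1.14 CPM (log2 -2.32, adjusted p = 0.0046), on 2, 22 and 45 counts in CTCFL-KD. Without CTCFL-KD replicate 3 its log2 fold change was -3.10. The other receptor-regulated SMADs, *SMAD1* (log2 0.04 ± 0.20) and *SMAD5* (-0.66 ± 0.27), and the common partner *SMAD4* (-0.10 ± 0.18) did not pass. *SMURF2*, a ubiquitin ligase and the highest here by mean TPM over the 9 libraries, differed by -0.70 ± 0.21, which is within the fold limit.

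Extracellular antagonists and modulators showed 4 higher and 1 lower of 11 tested in CTCFL-KD. *NOG* (noggin), which binds BMPs and keeps them from their receptors, had 40.3, 34.4 and 37.9 CPM in Control and 22.0, 32.7 and 46.5 in CTCFL-OE, while CTCFL-KD had 99.6, 99.7 and 104 (log2 1.43 ± 0.24 SE against Control, adjusted p = 0.00114). The CTCFL-KD libraries lay within a few CPM of each other and above all others. *SOSTDC1*, an antagonist of BMP and WNT signals, rose from 4.50 ± 0.812 to 26.3 ± 3.66 CPM (adjusted p = 2.14e-05), and *CHRDL1*, a chordin-like antagonist, from 10.5 ± 0.385 to 46.1 ± 13.7 CPM (adjusted p = 0.000123). *FST* (follistatin), which traps activins and some BMPs, rose by 1.35 ± 0.18 (adjusted p = 0.000283). *BMPER*, which can hinder or help BMPs, had 2.50, 2.33 and 2.73 CPM in Control against 3.60, 6.85 and 8.91 in CTCFL-OE, with 0.812, 0.892 and 0.822 in CTCFL-KD. It rose in CTCFL-OE by 1.35 ± 0.30 (adjusted p = 0.0613) and fell in CTCFL-KD, where the value was -1.57 ± 0.36 (adjusted p = 0.00597), and CTCFL-KD lay below CTCFL-OE by -2.92 ± 0.35 (adjusted p = 0.000202). The CTCFL-OE call of *BMPER* was lost without any one Control library (adjusted p from 0.254 to 0.268), without CTCFL-OE replicate 2 (0.236) and without CTCFL-OE replicate 3 (0.220). *GREM1* (gremlin) passed only in CTCFL-KD against CTCFL-OE (-1.35 ± 0.41, adjusted p = 0.0305), a call that held in 15 of 20 alternatives (adjusted p up to 0.0938) and whose log2 fold change without CTCFL-OE replicate 3 was -0.74. *FSTL1*, highest by mean TPM over the 9 libraries, had 420 ± 10.2 CPM in Control and did not pass in CTCFL-KD (log2 0.40 ± 0.23).

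Among 7 tested genes reported elsewhere as BMP responses, 4 fell and 1 rose in CTCFL-KD. *ATOH8*, a helix-loop-helix factor, had 5.11, 5.56 and 7.09 CPM in Control and 7.57, 11.7 and 16.6 in CTCFL-OE, while CTCFL-KD had 0.992, 0.595 and 0.548. CTCFL-OE lay above and CTCFL-KD below Control, by 1.01 ± 0.29 (adjusted p = 0.121, which did not pass) and -3.10 ± 0.37 (adjusted p = 0.000139). In CTCFL-OE it did meet the limits in 8 of 20 alternatives (adjusted p from 0.00642 to 0.422 over all 20). *GATA2*, a zinc-finger factor, fell from 18.6 ± 1.26 to 2.68 ± 0.451 CPM (adjusted p = 0.000312), and the homeobox gene *MSX2* was at least 9.72-fold lower (adjusted p = 0.0013), at or under 3 counts in all CTCFL-KD libraries. *RUNX2*, a factor of bone formation, fell by 1.30 on the log2 scale (SE 0.34, adjusted p = 0.012), a call that was lost without CTCFL-KD replicate 1, where the value was -0.995. *HEY1*, a repressor that also answers to Notch, was the only one of the 7 to rise (log2 1.47 ± 0.17, adjusted p = 0.000116). *DLX5*, highest by mean TPM over the 9 libraries, differed by -0.71 ± 0.21, within the fold limit. In CTCFL-OE none of the 7 passed in the fit reported here.

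The E proteins are the partners that ID proteins bind. *TCF4* rose in CTCFL-KD, with 11.3, 14.1 and 12.3 CPM in Control and 35.0, 68.3 and 68.7 in CTCFL-KD (log2 2.19 ± 0.26 SE, adjusted p = 0.000145). *TCF3*, highest by mean TPM over the 9 libraries, had 118 ± 6.17 CPM in Control and 137 ± 5.26 in CTCFL-KD (log2 0.22 ± 0.15, adjusted p = 0.263), and *TCF12* differed by -0.13 ± 0.26 (adjusted p = 0.726). In CTCFL-OE none of the 3 passed.

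**Figure D4:**
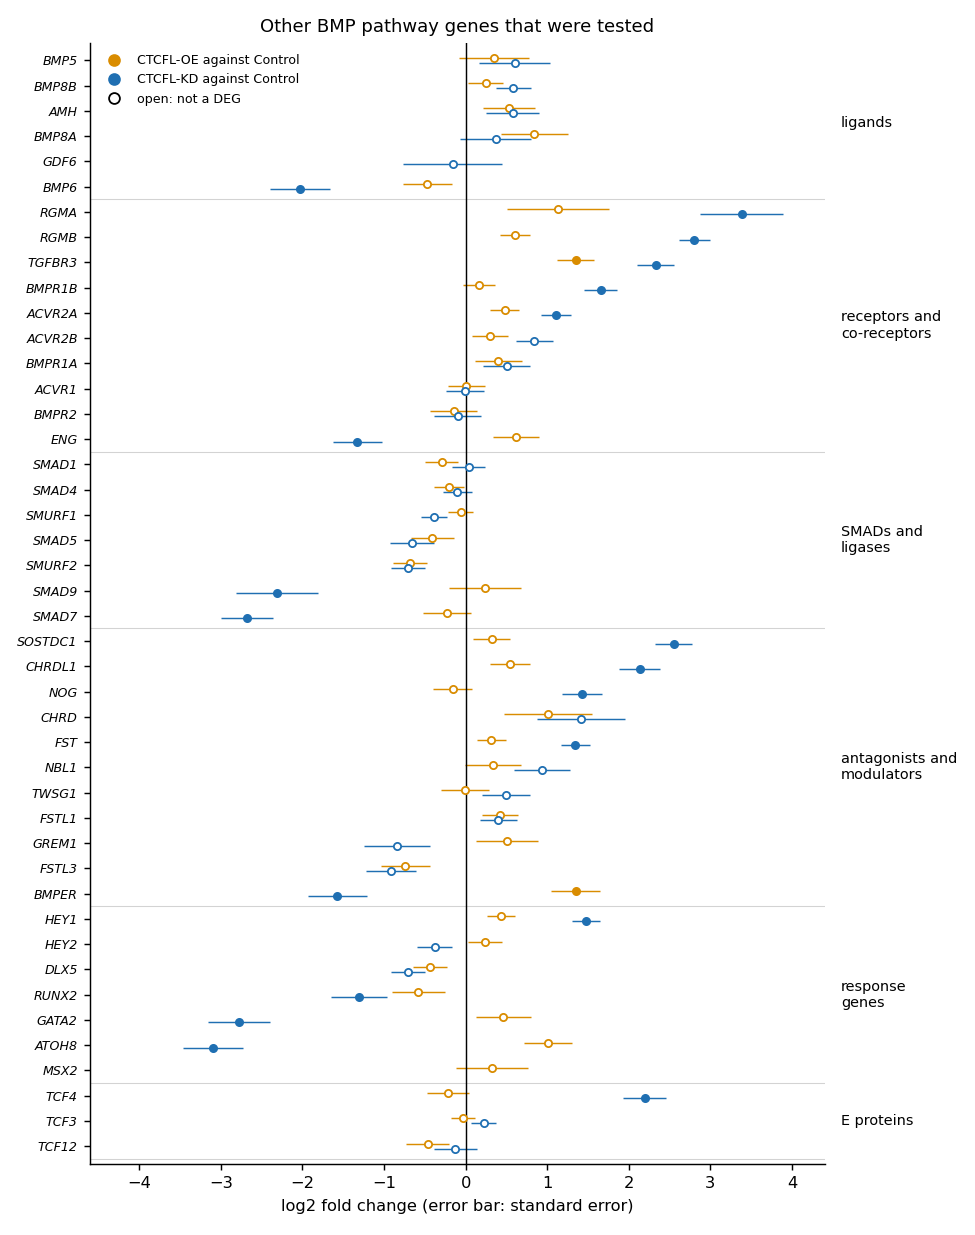
Log2 fold change against Control (error bars: SE) of the 44 tested genes of the other BMP pathway lists, by role; filled points are DEGs and open points are not. *MSX2* has no CTCFL-KD point and *GDF6* no CTCFL-OE point, since those groups were at or under 3 counts. Most filled CTCFL-KD points among receptors, co-receptors and antagonists lie to the right, such as *RGMB* at 2.80, while *ENG* and *BMPER* (-1.57) lie to the left, as do *SMAD7* at -2.68 and *ATOH8* at -3.10.

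In CTCFL-KD against CTCFL-OE, 18 of the 44 genes were DEGs, 9 higher and 9 lower, beside 17.0% of all genes tested. *BMPER* and *ATOH8* (log2 -4.11 ± 0.37 SE, adjusted p = 3.77e-05) were among the 9 lower genes. *TGFBR3*, by contrast, differed between these groups by 0.98 ± 0.22 (adjusted p = 0.00783), just inside the fold limit.

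By pattern over the 9 libraries, the protein-coding genes most like *ID1* among 13696 compared were the AP-1 genes *JUNB* (Pearson's r = 0.991 on log2 CPM) and *FOSL1* (0.986), *NFKB2* (0.990), *SHROOM1* (0.990) and *CAPN13* (0.989). *JUNB* had 65.1, 46.1 and 22.5 CPM on average in Control, CTCFL-OE and CTCFL-KD. Most like *BMP7* were *MUC20* (0.997), *SUSD4* (0.995), *IGSF9* (0.995), *EMP2* (0.994) and *COL23A1* (0.994), and *MUC20* had 11.0, 17.3 and 107 CPM. Within the 9 genes described here, *ID2* and *ID3* were most alike (r = 0.991), and *BMP7* ran against *ID3* (-0.980). These are descriptions over 9 libraries that share their group structure.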

How the data were processed

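The RNA-seq libraries (TruSeq Stranded mRNA, paired-end) measured 9 samples in 3 groups of 3, grouped by the sample labels. The authors trimmed the reads with Trimmomatic and counted them on genes with featureCounts on GRCh38, and the deposited values are raw counts per gene. The submitters' processing notes name kallisto, while the paper's methods name STAR. Annotation release and strand setting are not given in the sources used here. Reads of overlapping or near-identical genes may therefore be shared. The 9 single-library tables equalled the columns of the matrix, and GENCODE 44 named 60419 of 60660 identifiers.

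Counts were fitted with edgeR 4.0.16 in R 4.3.3 (filterByExpr, TMM, glmQLFit with robust estimation, glmQLFTest) over all 9 libraries with group as the only factor, which tested 17794 genes. The script was tested on simulated data. CPM used TMM-scaled library sizes, and TPM used the union of exons. Tables and figures used Python 3.11.15, pandas 2.3.3, numpy 2.4.6, scipy 1.17.1 and matplotlib 3.10.9. The text names the 10 genes described, *CTCFL*, every pathway-list gene called in any comparison, the gene of highest mean TPM over the 9 libraries in each list, and the 5 protein-coding genes most like *ID1* and *BMP7*; other names were chosen after their values were seen. The members and the lists were chosen with earlier results of these data known. Floors cover counting error only, while SDs and SEs include the spread between replicates. Replicate pairs differed by more than counting noise, and not equally in the groups. The chi-square of counts per degree of freedom was 3.21 to 7.54 between Control libraries and 25.1 to 104 between CTCFL-OE libraries. In CTCFL-KD it was 145 and 153 for replicate 1 against replicates 2 and 3, and 8.23 between those. The fit nevertheless shared its estimate of the spread over the groups. Alternatives were RLE and upper-quartile scaling, 2 other count filters, DESeq2 1.42.0, fits of the 2 groups compared, robust estimation off, a replicate block, transcript length offsets and each library left out.

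Deviations from the group means of Control and CTCFL-KD libraries with the same number correlated by 0.467, 0.240 and 0.358 over 8253 genes. With the trend on transcript length removed, the values were 0.324, 0.159 and 0.304. That these numbers mark pairs is thus read from the data and not from a stated design. The fit reported here did not use such pairs, and the replicate block was run only as an alternative. For Control and CTCFL-OE the values before this removal were -0.02, 0.28 and -0.03, and no pairs were read from them.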

Additional observations from a re-analysis of the deposited data

How the results depend on the processing

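The log2 fold changes of the 8 genes above 3 counts in every group kept their sign against Control in CTCFL-KD under all 20 alternatives. In CTCFL-KD the number of the 9 tested genes that met the limits was 9, and 8 to 9 with 1 library left out. With the replicate block, 9 of these genes, 20 of the 44 other pathway genes and 4027 genes in all were called in CTCFL-KD against Control. It changed no call on a pathway-list gene named above for that comparison. The neighbors named below are not covered by this. Without 1 library, CTCFL-KD gave 3661 to 4511 DEGs, against 4132, and 20 to 21 pathway genes. With at least 10 counts in every library, where fewer genes were tested, 8 of the 9 genes and 15 pathway genes were called.

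The CTCFL-OE comparison depended much more on the processing, and the cause was not tested. Its 368 DEGs became 826 without a low-count filter, 750 with DESeq2 on the 2 groups, 835 with edgeR on the 2 groups and 44 to 1184 with 1 library left out, the lowest without Control replicate 3 and the highest without CTCFL-OE replicate 1. It was 45 and 61 without Control replicates 1 and 2, 79 and 109 without CTCFL-OE replicates 2 and 3, and 980 without CTCFL-KD replicate 1. Its 2 pathway genes became 1 with at least 10 counts in every library, where fewer genes were tested, and 0 to 4 with 1 library left out. In CTCFL-OE, leaving out 1 library moved the log2 fold change of *BMPR1B* over -0.015 to 0.31, *GREM1* over -0.12 to 0.80, *MSX2* over -0.23 to 0.66 and *SMAD9* over -0.049 to 0.45, with the changed sign without replicate 3, and *NOG* over -0.46 to 0.069, with the changed sign without replicate 1. *BAMBI* moved over -0.23 to 0.83 and *SMAD6* over -0.31 to 0.21, the lowest without CTCFL-OE replicate 3 and the highest without replicate 1. None of these genes passed in that comparison. In CTCFL-KD against CTCFL-OE, 3032 DEGs became 1947 with at least 10 counts in every library (6 of the 9 genes and 13 pathway genes) and 2544 to 3404 with 1 library left out (7 to 8 and 16 to 19). Without a low-count filter all 9 genes were called. There the calls of *FST*, *GREM1* and *HEY1* held in 11, 15 and 16 of 20 alternatives and that of *BMP6* in 17 of the 19 in which it was tested.

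With 3 libraries a group, depth limits genes of few counts, such as *BMP2*, *BMP3* outside CTCFL-KD, *BAMBI*, *CTCFL*, *RGMA*, *MSX2* and *BMP6*. By the study's methods the CTCFL-KD RNA came from an earlier experiment, although same-numbered Control and CTCFL-KD libraries deviated together, and whether the numbers mark shared batches is not given in the sources used here. No alternative separates such a difference between experiments from the knockdown.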

Other observations

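Of the protein-coding genes within 500 kb of *BMP7*, 6 were tested. In CTCFL-KD *ZBP1*, a sensor of Z-form nucleic acid, rose (log2 3.81 ± 0.43 SE, adjusted p = 0.000101), and *PMEPA1*, which holds back TGF-beta signaling, fell (-3.65 ± 0.31, adjusted p = 1.7e-05), as did *CTCFL* itself. *PMEPA1* also fell in CTCFL-OE (-2.19 ± 0.29, adjusted p = 0.00814). Each adjusted p came from the quasi-likelihood test of edgeR after Benjamini-Hochberg adjustment. These neighbors were named after their values were seen, and how the calls of *ZBP1* and *PMEPA1* fared with a library left out is not given here.

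Around the *ID* genes, *MYLK2* and *FOXS1* fell beside *ID1* in CTCFL-KD (2 of 10 neighbors tested, log2 -2.70 ± 0.34 and -3.38 ± 0.36 SE). Only protein-coding neighbors were counted, so the overlapping lncRNAs named above are left out. The counts stand beside 23.2% called in CTCFL-KD over tested genes of every type, and nothing particular to these loci is read from them. Beside *ID3*, *TCEA3* and *FUCA1* rose and *MYOM3* fell (3 of 17). Beside *ID4*, *MBOAT1* rose (1 of 1), and beside *ID2* none of 2 was called. Near *SMAD6*, *SMAD3*, a SMAD of the TGF-beta and activin branch, fell (-1.29 ± 0.16, adjusted p = 0.000147) with *ZWILCH*, while *MEGF11* rose (3 of 11). Near *BAMBI*, *MPP7* fell in CTCFL-OE (-1.16 ± 0.28, adjusted p = 0.0782) and in CTCFL-KD (-1.46 ± 0.28, adjusted p = 0.00253), and both comparisons share the Control libraries. Near *BMP3* and *BMP4* none of 2 neighbors each was called. The calls of all these neighbors, that of *MPP7* in CTCFL-OE among them, are from the main fit only. How they fared with a library left out is not given here.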
